A study of Mus musculus with 3 samples.

Results

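The 10 genes described here are 4 BMP ligands (*Bmp2*, *Bmp4*, *Bmp5* and *Bmp7*) and 6 genes that BMP signalling is known to switch on (*Id1*, *Id2*, *Id3*, *Msx1*, *Msx2* and *Smad6*). They were taken by symbol from the gene tables of the endoderm, mesoderm and epiblast of the E7.5 mouse embryo, and all 10 were found in all 3 tables, out of 17633 genes with a read in any of them. Each germ layer came from ICR mice, with no treatment or genetic change given in the labels, and was separated with enzymes and needles from the embryonic region after the extra-embryonic part had been cut away. The epiblast sample held the neuroectoderm and the primitive streak. Each layer is represented by 1 RNA-seq library pooled over many embryos (41.7 M, 40.8 M and 42.7 M reads counted on genes in endoderm, mesoderm and epiblast), so the differences below have no replicate check. Intervals are 95% intervals of read counting only, exact Poisson for a level and exact binomial (Clopper-Pearson) for a fold.

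BMPs are secreted dimers of the TGFβ superfamily. They bring together type I and type II serine/threonine kinase receptors, which phosphorylate Smad1, Smad5 and Smad9. These join Smad4, enter the nucleus and bind GC-rich Smad sites near target genes. Among the most direct targets are the *Id* genes, whose proteins bind bHLH transcription factors and keep them off DNA, the *Msx* homeobox genes, and *Smad6*, an inhibitory Smad that feeds back on the receptors. In the gastrulating mouse, BMP signals are known for their part in the formation of posterior and extra-embryonic mesoderm and of primordial germ cells, and BMP antagonists from the node and anterior tissues protect the neural plate.

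Promoter sequence from RefSeq was at hand for 7 of the 10 genes (*Bmp4*, *Bmp5*, *Id2*, *Id3*, *Msx1*, *Msx2* and *Smad6*; build GRCm38.p6). Of these, 4 response genes are shown because 2 of them (*Smad6* and *Msx2*) were lowest in epiblast, 1 (*Id2*) was highest in endoderm, and 1 (*Id3*) was nearly level. Each sequence runs 5′ to 3′ on the strand of the gene, from 250 bases before the RefSeq start to 10 bases after it. The RefSeq start of *Smad6* is the outermost GENCODE start of the gene, while those of *Msx2*, *Id2* and *Id3* lie 294, 1048 and 325 bases inside the GENCODE gene, which therefore contains these 3 stretches. Capitals mark GGCGCC or GGAGCC, the GC-rich sites bound by Smad1 and Smad5, on either strand (GGAGCC reads GGCTCC on the other strand), and the Smad palindrome GTCTAGAC.
Smad6 (chr9:64022050-64022309, minus strand): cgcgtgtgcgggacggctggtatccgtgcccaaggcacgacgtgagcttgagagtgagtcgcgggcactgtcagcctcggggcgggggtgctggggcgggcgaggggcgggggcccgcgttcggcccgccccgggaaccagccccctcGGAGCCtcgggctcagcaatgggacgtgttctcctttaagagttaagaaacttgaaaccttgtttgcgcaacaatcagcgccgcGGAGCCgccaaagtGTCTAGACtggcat
Msx2 (chr13:53472771-53473030, minus strand): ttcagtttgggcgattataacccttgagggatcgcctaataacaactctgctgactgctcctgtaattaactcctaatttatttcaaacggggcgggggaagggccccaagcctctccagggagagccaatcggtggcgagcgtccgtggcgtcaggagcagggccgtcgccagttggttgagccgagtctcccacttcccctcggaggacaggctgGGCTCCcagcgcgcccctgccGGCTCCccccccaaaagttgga
Id2 (chr12:25096083-25096342, minus strand): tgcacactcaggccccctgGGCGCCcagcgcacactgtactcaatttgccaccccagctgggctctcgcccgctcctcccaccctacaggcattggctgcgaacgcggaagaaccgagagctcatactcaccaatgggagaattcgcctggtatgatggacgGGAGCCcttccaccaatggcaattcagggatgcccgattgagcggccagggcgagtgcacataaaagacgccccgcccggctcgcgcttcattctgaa
Id3 (chr4:136143572-136143831, plus strand): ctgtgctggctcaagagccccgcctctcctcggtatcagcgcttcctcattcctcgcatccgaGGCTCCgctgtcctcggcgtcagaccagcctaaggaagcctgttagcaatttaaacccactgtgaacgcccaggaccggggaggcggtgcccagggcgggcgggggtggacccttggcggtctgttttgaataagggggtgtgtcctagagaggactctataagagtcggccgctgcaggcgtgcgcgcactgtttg

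Over the full window of 300 bases (50 after the start), GGAGCC was found in the promoters of 6 of the 7 genes, all but *Bmp5*, and in 30.8% of the 32851 promoters of the same length in the table. GGCGCC was found in 1 of the 7 (*Id2*) against 11.9% of all promoters. GTCTAGAC was found in 1 of the 7 (*Smad6*), from 4 bases before the start, against 0.213% of all promoters. These matches describe the letters in this window and were not tested as binding sites. No match overlapped another.

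The libraries held the markers of their layers, measured as RPKM (reads corrected for gene length and for the reads counted in the library). The 6 mesoderm markers were all highest in mesoderm, and the 5 endoderm markers were all highest in endoderm. *Tbx6* was close in mesoderm and epiblast (38.7 and 34.1). In epiblast *Snai1* and *Mesp1* had 24.9 and 11.6 (67.3 and 50.5 in mesoderm). *Kdr*, *Foxf1* and *Pdgfra* had 0.771, 1.72 and 8.98 in epiblast (40.8, 33.2 and 65.3 in mesoderm). Of the 6 epiblast markers 5 were highest in epiblast, with *Cdh1*, which other epithelia also express, higher in endoderm (181 against 156). *Sox2* had 42.7 in epiblast, and *Pax6* 0.693. Markers of primitive red cells and of decidua were low, with summed RPKM values of 3.75, 6.65 and 4.21 and of 0.678, 0.951 and 1.73 in endoderm, mesoderm and epiblast. *Hba-x*, *Hbb-y* and the decidual *Prl8a2* were not listed in any of the tables, so no level is given for them.

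The ligands together had a summed RPKM of 56.4, 94.5 and 11.1 in endoderm, mesoderm and epiblast. Each of the 4 was lower in epiblast than in mesoderm, by 4.20-fold to 32.0-fold, and the layers differed in which ligand they carried. In endoderm, *Bmp7* and *Bmp2* made up 49.2% and 43.9% of the ligand RPKM. In mesoderm, *Bmp4* held 35.5%, *Bmp7* 32.8%, *Bmp5* 17.9% and *Bmp2* 13.8%. In epiblast, *Bmp7* held 66.6% and *Bmp4* 24.2% of the much smaller sum. In bulk RNA, fewer cells of a type and less RNA per cell cannot be told apart, here and in all values below.

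*Bmp4* (chromosome 14, 46383520 to 46390669) encodes the ligand whose loss is known to block mesoderm and germ cell formation. It had 92 reads (endoderm), 2735 (mesoderm) and 229 (epiblast), or an RPKM of 1.11 (0.893 to 1.36), 33.6 (32.3 to 34.9) and 2.69 (2.35 to 3.06). Mesoderm was thus 30.3-fold (24.6 to 37.7) above endoderm and 12.5-fold (10.9 to 14.4) above epiblast. Epiblast was 2.43-fold (1.90 to 3.13) above endoderm at levels that both lay under an RPKM of 5. Extra-embryonic ectoderm is a well-known source of *Bmp4* beside mesoderm. Of its 9 markers and those of trophoblast, 7 had reads, with a summed RPKM of 27.8 (endoderm), 8.70 (mesoderm) and 8.89 (epiblast). *Elf5*, a defining marker, had 10, 12 and 31 reads in endoderm, mesoderm and epiblast, and *Esrrb* had 30, 51 and 108. *Tpbpa* and *Prl3d1* were not listed in any of the tables. In the same order of layers, *Plac1* had 886, 273 and 26 reads, *Esx1* 478, 4 and 9, and *Tfap2c* 17, 94 and 688. *Plac1* gave an RPKM of 6.25 to the mesoderm sum, and *Tfap2c* 5.65 to the epiblast sum. The part of these cells in the *Bmp4* level was not tested.

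The 6 markers of extra-embryonic mesoderm and allantois, *Foxf1* of the mesoderm markers among them, all had their highest RPKM in mesoderm, as *Bmp4* did. Their summed RPKM was 4.93 (endoderm), 279 (mesoderm) and 36.9 (epiblast), most of it from *Hand1* (222 in mesoderm), which embryonic mesoderm also expresses. *Tbx4*, a marker of the allantois, had 1, 127 and 13 reads. Their part in the *Bmp4* level was not tested either.

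*Bmp5* (chromosome 9, 75775364 to 75900310) encodes a ligand of the same subgroup as *Bmp7*, and had its highest level in mesoderm as *Bmp4* did. Its reads were 290 (endoderm), 1746 (mesoderm) and 57 (epiblast), with an RPKM of 2.75 (2.45 to 3.09), 16.9 (16.1 to 17.7) and 0.528 (0.40 to 0.684). Mesoderm was 6.14-fold (5.42 to 6.98) above endoderm and 32.0-fold (24.6 to 42.5) above epiblast. Endoderm was 5.22-fold (3.92 to 7.06) above epiblast. The order of *Bmp5* therefore differed from that of *Bmp4* in its lower layers, with epiblast rather than endoderm at the bottom.

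*Bmp2* (chromosome 2, 133552159 to 133562885), the closest relative of *Bmp4*, was highest in endoderm. It had 2621 reads (endoderm), 1351 (mesoderm) and 53 (epiblast), or an RPKM of 24.8 (23.8 to 25.7), 13.02 (12.3 to 13.7) and 0.489 (0.366 to 0.639). Endoderm exceeded mesoderm by 1.90-fold (1.78 to 2.03) and epiblast by 50.7-fold (38.6 to 67.9), and mesoderm exceeded epiblast by 26.6-fold (20.3 to 35.8). *Bmp2* had the widest range of the 10 genes. Markers of visceral endoderm were highest in the same library: the 8 genes of that list, among them *Afp* and *Ttr*, were all highest in endoderm, with a summed RPKM of 4854 there, 5.36 in mesoderm and 4.29 in epiblast. The markers of endoderm in general, *Sox17* and *Foxa2*, had an RPKM of 39.5 and 44.0 in the same library. In mesoderm none of the 8 visceral markers exceeded an RPKM of 1.91. The part of visceral endoderm in the *Bmp2* levels was not tested.

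*Bmp7* (chromosome 2, 172868012 to 172940321) had the narrowest range of the 4 ligands across the 3 layers. It had 2298 reads (endoderm), 2518 (mesoderm) and 627 (epiblast), with an RPKM of 27.8 (26.6 to 28.9), 31.0 (29.8 to 32.3) and 7.39 (6.82 to 7.99). Endoderm and mesoderm differed by 1.12-fold (1.06 to 1.18), whereas endoderm was 3.76-fold (3.44 to 4.11) and mesoderm 4.20-fold (3.85 to 4.59) above epiblast. It was the only 1 of the 4 ligands with an RPKM over 5 in epiblast.

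**Figure D1:**
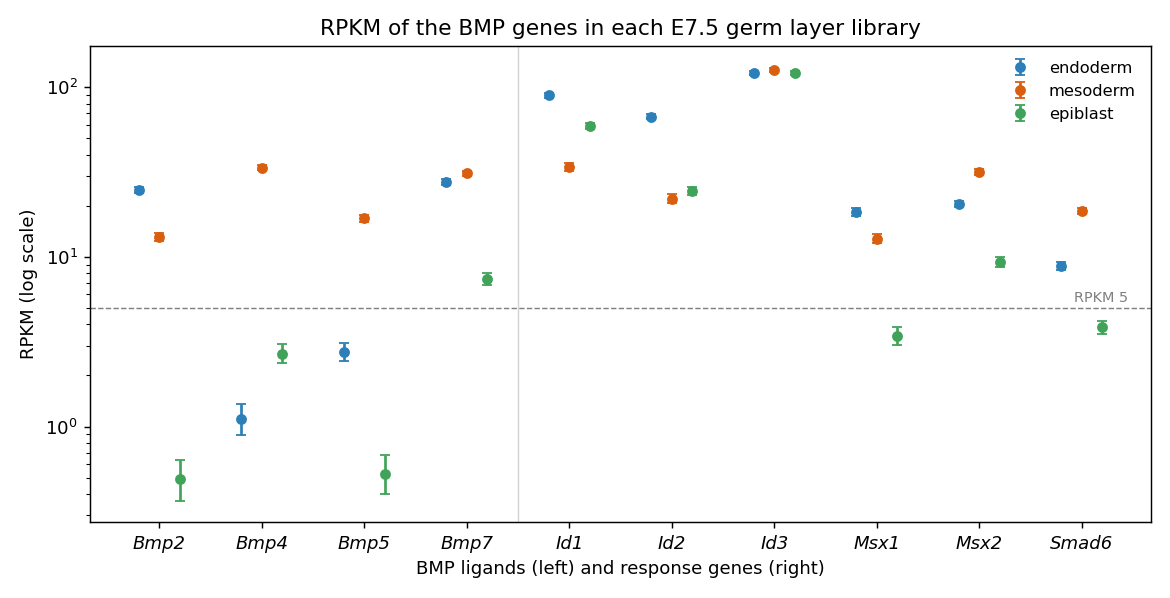
RPKM on a log axis of the 4 ligands and 6 response genes in the endoderm (blue), mesoderm (orange) and epiblast (green) libraries, 1 library each. Bars are 95% Poisson intervals of the read counts, and the dashed line marks an RPKM of 5. *Bmp2* in epiblast (0.489) is the lowest point, and the 3 points of *Id3* lie between 121 and 127.

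The response genes did not share 1 order across the layers. *Msx1*, *Msx2* and *Smad6* were lowest in epiblast, *Id1* and *Id2* were highest in endoderm and lowest in mesoderm, and *Id3* was nearly level. The summed RPKM of the 6 was 325 (endoderm), 246 (mesoderm) and 222 (epiblast). Most of each sum came from the *Id* genes (277, 183 and 206). Between mesoderm and epiblast the sum of the *Msx* genes differed by 3.48-fold and *Smad6* by 4.88-fold.

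*Id3* (chromosome 4, 136143497 to 136145755) had the highest RPKM of the 10 genes in each layer. Its reads were 4860 (endoderm), 4997 (mesoderm) and 5021 (epiblast), with an RPKM of 121 (118 to 124), 127 (123 to 130) and 122 (119 to 125), which was rank 597, 573 and 599 from the top of the listed genes. Endoderm and epiblast differed by 1.01-fold, with an interval of 0.969 to 1.05 that includes 1. Mesoderm was 1.05-fold (1.01 to 1.09) above endoderm and 1.04-fold (1.0003 to 1.08) above epiblast, and which layer was higher changed in each pair of layers with at least 1 other scaling of the libraries. No order of the 3 layers can be read from these values.

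*Id1* (chromosome 2, 152736251 to 152737410) had 3393 reads (endoderm), 1267 (mesoderm) and 2297 (epiblast), or an RPKM of 89.4 (86.4 to 92.5), 34.0 (32.2 to 36.0) and 59.0 (56.7 to 61.5). Endoderm was 2.63-fold (2.46 to 2.80) above mesoderm and 1.51-fold (1.44 to 1.60) above epiblast, and epiblast was 1.73-fold (1.62 to 1.86) above mesoderm. The lowest level of this target was in mesoderm, the layer with the highest sum of ligands, whereas *Msx2* and *Smad6* were highest there. A link between the ligand sum and the targets was not tested. *Id2* (chromosome 12, 25093799 to 25097140) showed the same order as *Id1* with a larger step at endoderm. It had 3587, 1162 and 1349 reads in endoderm, mesoderm and epiblast, with an RPKM of 66.8 (64.6 to 69.0), 22.1 (20.8 to 23.4) and 24.5 (23.2 to 25.8). Endoderm was 3.03-fold (2.83 to 3.24) above mesoderm and 2.73-fold (2.56 to 2.90) above epiblast, whereas epiblast and mesoderm differed by 1.11-fold (1.03 to 1.20). *Id3* thus held 43.7% of the summed *Id* RPKM in endoderm, 69.3% in mesoderm and 59.3% in epiblast.

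**Figure D2:**
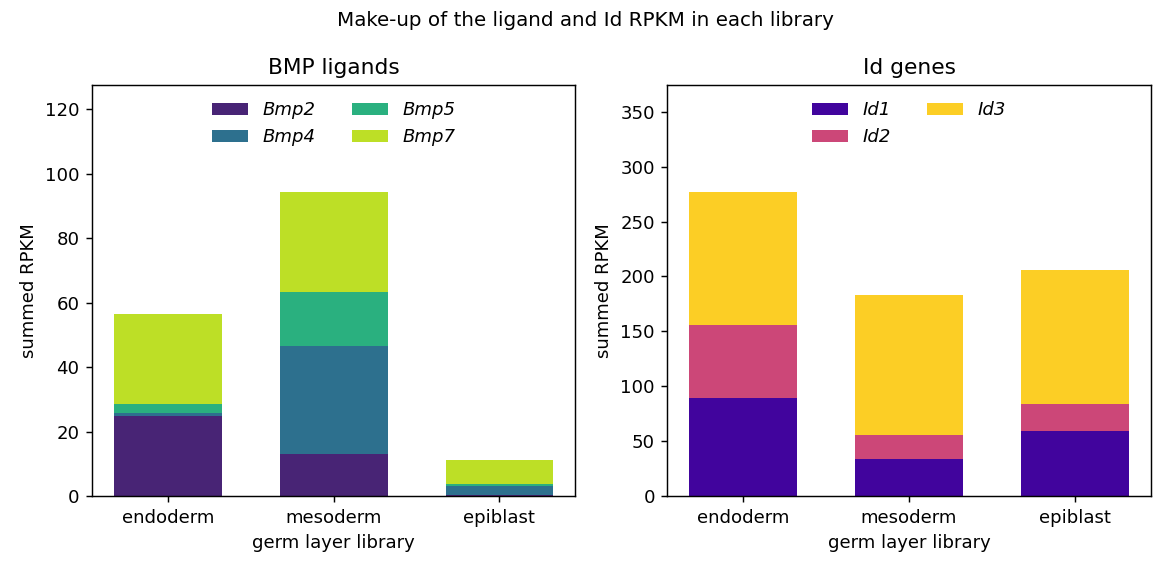
Summed RPKM of the 4 ligands (left) and of the 3 *Id* genes (right) in each library, with 1 stacked colour per gene and both axes starting at 0. The ligand bar is tallest in mesoderm (94.5) and shortest in epiblast (11.1), while the *Id* bar is tallest in endoderm (277) and shortest in mesoderm (183).

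*Msx2* (chromosome 13, 53466884 to 53473074), a homeobox repressor, was highest in mesoderm. It had 1847 reads (endoderm), 2797 (mesoderm) and 863 (epiblast), or an RPKM of 20.5 (19.6 to 21.5), 31.7 (30.5 to 32.9) and 9.35 (8.73 to 9.99). Mesoderm was 1.54-fold (1.46 to 1.64) above endoderm and 3.39-fold (3.14 to 3.66) above epiblast, and endoderm was 2.19-fold (2.02 to 2.38) above epiblast. Its relative *Msx1* (chromosome 5, 37820485 to 37824583) was also lowest in epiblast but highest in endoderm. It had 1475, 1008 and 283 reads in endoderm, mesoderm and epiblast, with an RPKM of 18.3 (17.4 to 19.3), 12.8 (12.0 to 13.6) and 3.43 (3.04 to 3.86). Endoderm was 1.44-fold (1.32 to 1.56) above mesoderm and 5.34-fold (4.70 to 6.09) above epiblast, and mesoderm was 3.72-fold (3.26 to 4.26) above epiblast. *Msx1* and *Msx2* were near equal in endoderm per length (47.2% and 52.8% of their sum), while *Msx2* held 71.3% in mesoderm and 73.1% in epiblast. The reads of *Msx1* covered 78.6%, 69.0% and 56.8% of its length in endoderm, mesoderm and epiblast, whereas genes of similar length and reads had a median of 97.9%, 96.8% and 94.5%. The coverage of *Msx2* was 93.3%, 96.1% and 88.0%, and RPKM divides by the whole length of each gene.

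*Smad6* (chromosome 9, 63953076 to 64022059), which blocks the BMP receptors from within the cell, was the gene that met the criteria of differential expression in all 3 pairs of layers. Its reads were 1095 (endoderm), 2274 (mesoderm) and 487 (epiblast), with an RPKM of 8.85 (8.33 to 9.39), 18.7 (18.0 to 19.5) and 3.84 (3.505 to 4.19). Mesoderm was 2.12-fold (1.97 to 2.28) above endoderm and 4.88-fold (4.42 to 5.39) above epiblast, and endoderm was 2.31-fold (2.07 to 2.57) above epiblast. With the libraries scaled by the median of ratios or by TMM, the first of these folds was 1.96 and the call between endoderm and mesoderm was lost. The call between endoderm and epiblast was lost with an RPKM over 10. edgeR's exact test lost both calls with endoderm at an assumed coefficient of variation of 0.2, and all 3 at 0.4.

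The criteria for differential expression were those of the study, an RPKM over 5 in either library of a pair, a fold over 2, and a false discovery rate (FDR) below 0.001. The FDR came from the Audic and Claverie exact test. That test compares the reads of 2 libraries and says nothing of the spread between replicate pools of embryos. The FDR decided no call of the 10 genes: each member that passed the RPKM and fold limits also passed the FDR limit.

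Between mesoderm and epiblast, all 10 genes passed the RPKM limit and 7 were called, all higher in mesoderm (*Bmp2*, *Bmp4*, *Bmp5*, *Bmp7*, *Msx1*, *Msx2* and *Smad6*). Of the 8340 genes that passed the RPKM limit in this pair, 10.3% were called, 5.30% higher in mesoderm and 5.02% higher in epiblast. The median log2 ratio of mesoderm to epiblast was 1.98 over the 10 genes and 0.02 over all genes past the limit. The 3 *Id* genes were not called in this pair. The 7 calls fell to 2 (*Bmp2* and *Bmp5*) in edgeR's exact test with an assumed coefficient of variation of 0.4 between replicate pools. Between endoderm and epiblast, 8 genes passed the RPKM limit and 6 were called, all higher in endoderm (*Bmp2*, *Bmp7*, *Id2*, *Msx1*, *Msx2* and *Smad6*). Here 24.6% of the 8843 genes past the limit were called, 15.7% higher in endoderm and 8.94% higher in epiblast. Over the 10 genes the log2 ratio of endoderm to epiblast had a median of 1.33, and over all genes past the limit of -0.08. *Bmp4* and *Bmp5* were under the RPKM limit in both libraries, and with an RPKM over 1 in its place both were called, in opposite directions. With the assumed coefficient at 0.2 and 0.4, edgeR's exact test left 3 and 1 of the 6 calls.

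Between endoderm and mesoderm, all 10 genes passed the RPKM limit and 5 were called, *Id1* and *Id2* higher in endoderm and *Bmp4*, *Bmp5* and *Smad6* higher in mesoderm. Of the 8867 genes past the limit, 23.0% were called, 14.4% higher in endoderm and 8.56% higher in mesoderm. As the members went both ways, their log2 ratio of endoderm to mesoderm had a median of -0.11, beside -0.10 over all genes past the limit. edgeR's exact test left 2 and 1 of the 5 at 0.2 and 0.4. *Bmp2* missed the fold limit at 1.90 and passed it at 2.06 with the median of ratios or TMM. The comparisons share libraries, so the low epiblast values enter 2 of the 3. Of the 10 genes, 6 had their lowest RPKM in epiblast and 0 their highest, where 30.5% of the 9135 genes with an RPKM over 5 in any library were lowest and 32.6% highest there. Of the members, 7 were called in 2 pairs, *Smad6* in 3, *Id1* in 1 and *Id3* in 0, where 31.5% of those 9135 genes were called in at least 1 pair.

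**Figure D3:**
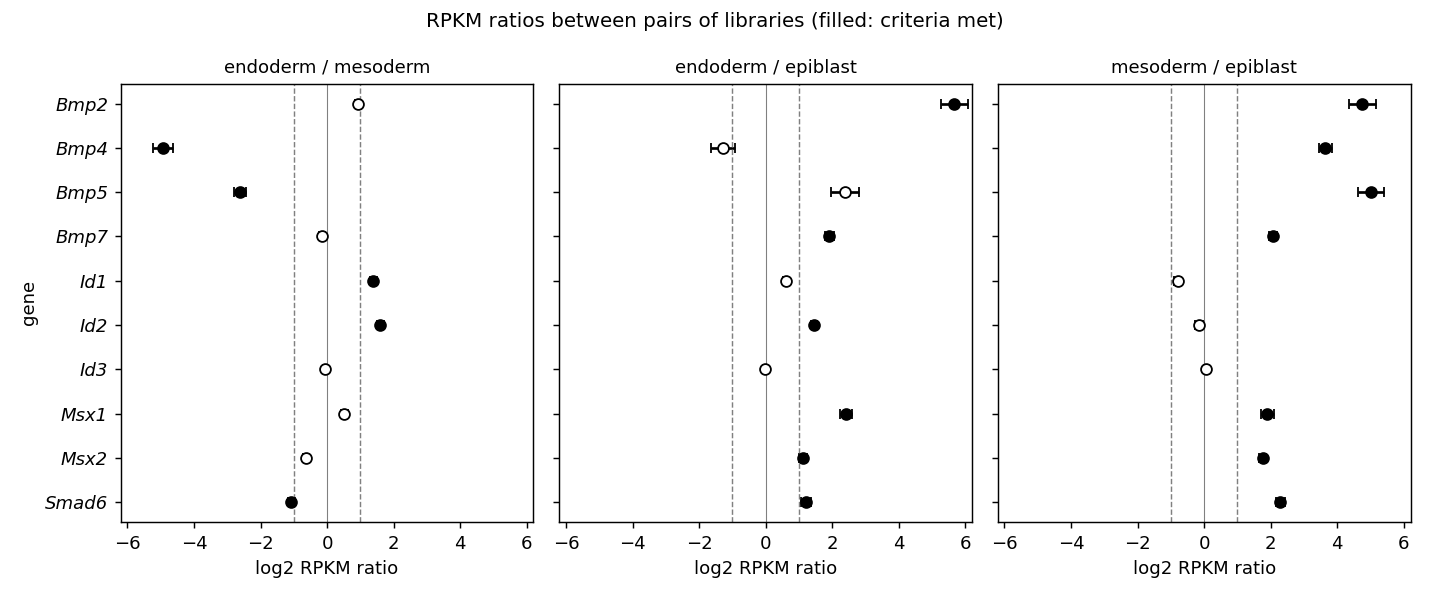
The log2 RPKM ratio of each gene in each pair of libraries, with 95% binomial intervals of the reads. Filled points met the criteria, open points did not, and dashed lines mark a 2-fold difference. In the mesoderm to epiblast panel 7 points are filled and all lie to the right, from *Msx2* (3.39-fold) to *Bmp5* (32.0-fold).

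The pattern of each gene was described by the share of its summed RPKM that lay in each library. Among the members, *Msx2* and *Smad6* were most alike, with shares that differed by at most 8.15 percentage points, followed by *Bmp7* and *Msx2* (8.62), *Bmp4* and *Bmp5* (10.7) and *Id1* and *Id2* (10.7). *Bmp4* and *Id1* were the least alike (71.2). Among 9134 other genes with an RPKM over 5 in any library, those nearest to *Bmp4* were *Pcp4* (0.223 percentage points), *Zeb1* (0.659) and *Lama4* (1.19). Nearest to *Bmp5* were *Jdp2* (2.38), *Tbx20* (2.74) and *Meis1* (4.29), and to *Bmp2* *Tnnc1* (1.73), *Emilin1* (2.33) and *Hhex* (2.84). *Bmp7* lay next to *St3gal6* (0.342), *Aebp1* (1.30) and *Igfbp4* (1.89). The genes nearest to *Smad6* were *Gm1673* (0.524), *Vasn* (2.51) and *Isl1* (3.02), to *Msx2* *Csrp2* (2.01), *Myc* (2.06) and *Greb1l* (2.25), and to *Msx1* *Tradd* (0.783), *Fgfrl1* (1.75) and *Gamt* (2.12). For *Id1* they were *Rbm38* (0.759), *Gabarapl1* (1.17) and *Pygb* (1.38), for *Id2* *Cyp2s1* (0.0986), *Trim6* (0.448) and *Pgm3* (0.499), and for *Id3* *Tax1bp1* (0.0354), *Rac1* (0.0817) and *Tbccd1* (0.159). How common a pattern was differed widely: 6 genes lay within 5 percentage points of *Bmp5* in all 3 libraries, 35 of *Bmp4*, 202 of *Id2* and 2545 of *Id3*. Likeness over 3 libraries is a description and carries no test.

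Beyond the 10 genes, 67 other genes of the pathway had been listed by role, and 39 had an RPKM over 5 in at least 1 library. Of the 12 other ligands 10 were listed, and *Bmp6* alone reached that level. *Bmp6* had an RPKM of 7.63 (endoderm), 2.87 (mesoderm) and 0.330 (epiblast) and was called higher in endoderm in both pairs. *Gdf6*, the next, had 0.0340, 3.16 and 0.298.

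Of 11 receptors and co-receptors, 7 had an RPKM over 5 in any library. Of these, 3 were called in at least 1 pair, beside 31.5% of all 9135 genes over that level. *Bmpr1a*, the type I receptor needed for gastrulation, had an RPKM of 25.7 (endoderm), 32.3 (mesoderm) and 30.2 (epiblast) and was not called in any pair. *Bmpr2*, a type II receptor, was 2.74-fold higher in endoderm (6.28) than in epiblast (2.30). *Rgma*, a BMP co-receptor, had 28.5 in epiblast, 2.76-fold above the 10.3 in endoderm. *Eng*, an endothelial co-receptor, had 0.101 (endoderm), 6.43 (mesoderm) and 1.11 (epiblast) and was called higher in mesoderm in both pairs.

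Of the 12 Smads and Smad regulators, 11 had an RPKM over 5 in any library. Of these, 2 were called in at least 1 pair, beside 31.5% of all 9135 genes over that level. Both were called higher in endoderm than in either other layer. *Smad9*, the third of the BMP Smads, had an RPKM of 7.43 (endoderm), 1.06 (mesoderm) and 0.362 (epiblast). *Tob1*, which binds and dampens BMP Smads, had 6.27, 2.59 and 2.23. The other 10 were not called, among them *Smad4*, the common partner (35.3, 49.97 and 52.2 RPKM in endoderm, mesoderm and epiblast), and *Fkbp1a*, which holds type I receptors inactive (200, 254 and 204).

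Of the 18 extracellular antagonists and modulators, 9 had an RPKM over 5 in any library. Of these, 7 were called in at least 1 pair, beside 31.5% of all 9135 genes over that level. The higher level of the 7 lay in different layers. *Cer1*, an antagonist of BMP, Nodal and Wnt signals, had an RPKM of 138 (endoderm), 47.4 (mesoderm) and 0.659 (epiblast) and was called in all 3 pairs. *Chrd* and *Nog*, which bind BMPs and are made by the node, had 13.4 and 6.01 in endoderm, 0.974 and 2.53 in mesoderm, and 3.47 and 1.46 in epiblast, and both were called higher in endoderm in both pairs. *Fst*, which binds activins and some BMPs, ran the other way, with 2.35 (endoderm), 14.5 (mesoderm) and 50.7 (epiblast), and was called in all 3 pairs. *Fstl1* had 18.9, 52.5 and 30.3 and was called between endoderm and mesoderm. *Bmper* (2.08, 7.31 and 2.09) and *Bambi*, a pseudoreceptor induced by BMP (4.39, 7.50 and 2.77), were highest in mesoderm, *Bmper* called in both pairs with mesoderm and *Bambi* against epiblast.

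Of the 14 other response genes, 11 had an RPKM over 5 in any library. Of these, 10 were called in at least 1 pair, beside 31.5% of all 9135 genes over that level. *Hand1*, a bHLH factor of extra-embryonic and cardiac mesoderm, had an RPKM of 0.999 (endoderm), 222 (mesoderm) and 33.2 (epiblast), and was called in all 3 pairs. *Hand2* had 0.215, 26.2 and 0.367 and was called higher in mesoderm in both pairs. *Atoh8* (3.23, 6.60 and 1.88) was also called higher in mesoderm in both pairs, and *Gata2* (6.01, 7.93 and 1.71) was called lower in epiblast in both. In epiblast, *Tfap2a* (12.2), *Dlx5* (11.6) and *Dlx3* (6.12), factors of surface ectoderm and the neural plate border, were called higher than in either other layer, where none of them exceeded 2.63. *Tbx3* had 37.1 (endoderm), 16.8 (mesoderm) and 3.62 (epiblast) and was called in all 3 pairs, and *Prdm1*, a regulator of germ cells also made by visceral endoderm, had 7.61, 1.999 and 0.492 and was called in both pairs with endoderm. *Zfp423*, a Smad cofactor, had 3.77, 21.0 and 16.0 and was called lower in endoderm in both pairs.

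Over the 5 lists, 16 of the 36 genes that passed the RPKM limit were called between endoderm and mesoderm, 8 in each direction. Between endoderm and epiblast 17 of 32 were called, 10 higher in endoderm and 7 higher in epiblast. Between mesoderm and epiblast 13 of 31 were called, 9 higher in mesoderm and 4 higher in epiblast. These stand beside the 23.0%, 24.6% and 10.3% of all genes past the limit that were called, in the same order of pairs. The median log2 ratio over the listed genes past the limit was -0.27 for endoderm to mesoderm, 0.06 for endoderm to epiblast and 0.40 for mesoderm to epiblast, against -0.10, -0.08 and 0.02 over all genes past it.

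**Figure D4:**
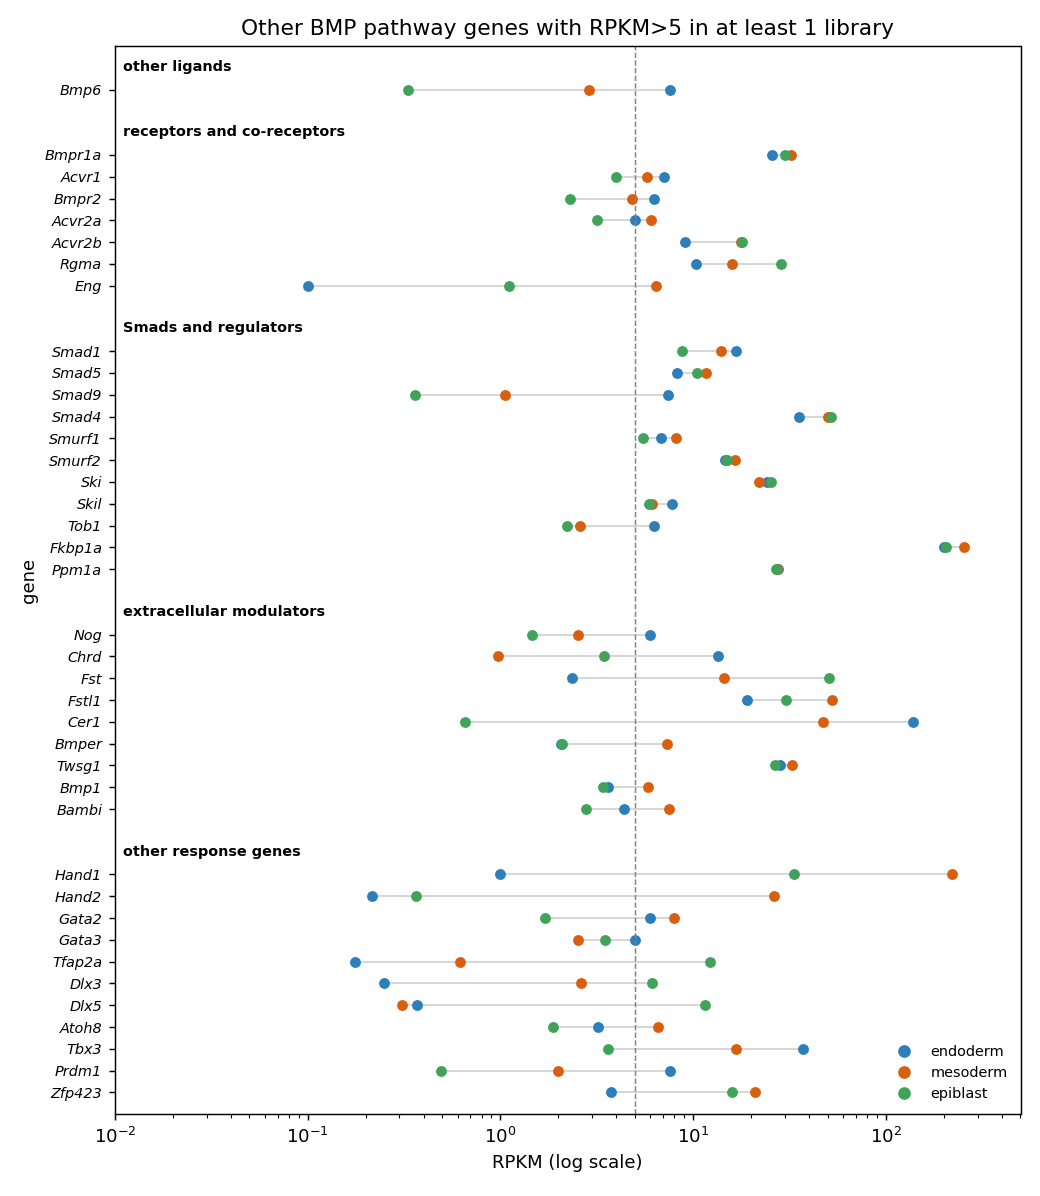
RPKM on a log axis of the 39 other BMP pathway genes with an RPKM over 5 in at least 1 library, grouped by role, with 1 point per library (endoderm blue, mesoderm orange, epiblast green) and a grey line from the lowest to the highest. The points of *Bmpr1a* lie between 25.7 and 32.3, while those of *Cer1* run from 0.659 to 138 and those of *Hand1* from 0.999 to 222.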

How the data were processed

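The authors sequenced 1 paired-end library per germ layer and removed adapters and low-quality reads. Per the file headers, the deposited counts are uniquely mapped reads per gene and are not normalized. Beside them stand the deposited RPKM, the gene length in bases and the coverage as a percent of that length. RPKM was recomputed from counts, length and library total, with a largest relative difference of 2.03e-07. The aligner, build and counter of the gene tables are not given in the sources used here. The submitters' processing notes list TopHat, mm10 and mm9. A gene listed in another table only was taken as 0 reads, which allows up to 3, and 3 reads or fewer were set to 3 in folds.

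Each pair of libraries was tested over all genes with a read in either (exact test of Audic and Claverie, two-sided, Benjamini-Hochberg). Genes with RPKM>5 in either library form the background for the shares and medians. With 1 library per layer, the quasi-likelihood test of edgeR has no residual degrees of freedom and could not be fitted. edgeR's exact test with an assumed coefficient of variation of 0.2 or 0.4 was an alternative, and the other alternatives changed the scaling, the RPKM and fold limits, the FDR adjustment or a pseudocount. The exact tests were also run on simulated libraries, which cannot show the spread between replicate pools, and no result here rests on them. Coverage was compared with genes at 0.8 to 1.25 times the reads and length. The pathway genes named are those called in any pair and the 2 highest of each list, and the 3 genes nearest in pattern to each member. The members and lists were chosen with earlier results of these data known. Gene positions are from GENCODE M21 (GRCm38). Exons of *Gm15217* and *Gm26903* overlap *Bmp4* and *Bmp5* on the opposite strand, and whether counting used strand is not given, so these reads cannot be told apart. *Foxf1* was matched as Foxf1a. Python 3.11.15, SciPy 1.17.1, R 4.3.3 and edgeR 4.0.16 were used. Splicing, microarray and qPCR data were not analysed here.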

Additional observations from a re-analysis of the deposited data

How the results depend on the processing

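Of 180 RPKM ratios recomputed for the 10 genes under 4 scalings and 2 pseudocounts, 176 kept their side of the criteria, 2 lost a call and 2 gained 1. The 4 changes are *Smad6* (lost) and *Bmp2* (gained) between endoderm and mesoderm with the median of ratios and with TMM, which move all log2 ratios of endoderm to mesoderm by 0.11. *Id3* alone changed direction, in 6 ratios, and it was called in none. The numbers of called members were 5, 6 and 7 (endoderm against mesoderm, endoderm against epiblast, mesoderm against epiblast). With a fold over 4 the first pair had 2 members and the second 2. edgeR's exact test with an assumed coefficient of 0.2 left 2 and 3 in those pairs, and with 0.4 it left 1, 1 and 2. The numbers of other pathway genes called were 16, 17 and 13. They became 8, 9 and 7 with RPKM>10, and 34, 30 and 35 with no RPKM criterion. RPKM>1 gave 28 between mesoderm and epiblast. A fold over 4 left 7 between endoderm and mesoderm and 8 between mesoderm and epiblast. edgeR's exact test left 9 between endoderm and mesoderm at 0.2, and 3, 9 and 3 at 0.4. The other counts stayed within 1.5 times. With no replicate, the spread between pools of embryos is unknown, and a gene with few reads, such as *Bmp2* in epiblast, is known less precisely.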

Other observations

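Some listed pathway genes under the RPKM limit differed widely in reads, and these were picked after their values were seen. *Gdf6* had 5, 456 and 45 reads in endoderm, mesoderm and epiblast, and *Gdf2*, a ligand of the endothelial receptor *Acvrl1*, had 2, 75 and 0, while *Acvrl1* itself had 54, 394 and 40. *Nkx2-5*, an early cardiac factor, had 15, 233 and 2 reads, and *Tbx2* 116, 325 and 12. *Smad7*, the inhibitory Smad of all TGFβ pathways, had RPKM values of 3.27, 4.45 and 1.12, highest in mesoderm and lowest in epiblast like *Smad6*. *Bmpr1b* had 23, 76 and 335 reads, and *Id4* had 62, 62 and 163.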
